A study of Bos taurus with 12 samples.

Results

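Glucose and lactate transporters of mesenchymal stem cells were examined as a set of 10 genes. The set holds the facilitative glucose carriers SLC2A1, SLC2A3, SLC2A4, SLC2A8, SLC2A10 and SLC2A12, the monocarboxylate carriers SLC16A1, SLC16A3 and SLC16A7, and BSG, a chaperone of monocarboxylate carriers. Members were taken from a list of symbols, each through the probe set annotated to that symbol alone, and each of the 10 had 1 such probe set. They are 10 of the 18010 genes so named on an array of 26773 probe sets. All cells were bone marrow mesenchymal stem cells from femurs and tibiae of juvenile cattle (Bos taurus), multipotent stromal cells that can form cartilage, bone or fat. Every culture had been expanded in high-glucose medium with fetal bovine serum through 1 passage at atmospheric oxygen. Cells of 3 donors were then grown for a week in each of 4 conditions, which were hypoxia (2% oxygen) with TGF-β3 at 10 ng/mL, hypoxia without TGF-β3, normoxia (21% oxygen) with TGF-β3, and normoxia without TGF-β3. Total RNA went onto 12 whole-transcript arrays, 1 per donor and condition. The conditioning medium was the same in all groups, the hypoxic cultures stayed in a closed workstation, and TGF-β3 is a signalling protein that drives such cells towards cartilage.

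Facilitative carriers of the SLC2A family (the GLUT proteins) let glucose move down its gradient into the cell, where phosphorylation traps it. Cells that rely on glycolysis turn pyruvate into lactate and release it together with a proton through carriers of the SLC16A family (the MCT proteins), several of which reach the plasma membrane with basigin, the product of BSG. In many human and rodent cell types the hypoxia-inducible factor HIF-1 raises transcription of SLC2A1, SLC2A3 and SLC16A3, and chondrocytes, which live at low oxygen, depend on this route.

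Values are log2 signals normalised by robust multi-array averaging (RMA). The median of an array lay between 6.59 and 6.66 and its first quartile between 4.89 and 4.98, and whether a low signal exceeded background was not tested. The number of arrays limits the precision. Differences are given on the log2 scale as the difference of group means ± its standard error in limma, with n = 3 arrays per group, and adjusted p-values are limma's over all probe sets after Benjamini and Hochberg. A gene is said to have risen where that adjusted p was under 0.05. Arrays of 1 donor resembled each other, so limma was also run with a fixed block for each donor, called the blocked fit here. Its values are given for the genes named, and its counts for the lists, where they change a call. A fit with donor as a random block is given for members where its call differs from that of the fixed block. Stromal identity was checked with 10 markers, of which 8 (NT5E, THY1, ENG, CD44, PDGFRA, PDGFRB, COL1A1 and COL1A2) lay above the third quartile of every array in each group, while VCAM1 and LEPR lay below the first quartile in each group. No measured haematopoietic, erythroid, endothelial, adipocyte or muscle marker lay above the third quartile on all arrays of any group.

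Of the 10 genes, 4 rose in hypoxia with TGF-β3 relative to normoxia without it: the glucose carriers SLC2A1 and SLC2A3 and the monocarboxylate carriers SLC16A1 and SLC16A3. In that comparison 1.89% of all probe sets rose. Because the members were chosen with earlier results of these data known, such shares give scale and do not test the set. Since RNA came from whole cultures, a change in the share of a cell type and a change of RNA per cell cannot be told apart. TGF-β3 raised SLC2A1 and SLC16A1 at each oxygen tension, where 1.45% of all probe sets rose at 2% oxygen and 1.28% at 21% oxygen. Hypoxia gave its widest difference for SLC16A3, above 2 log2 units with and without TGF-β3. None of the 10 was called by limma for hypoxia with TGF-β3 (4 at an unadjusted p under 0.05) or without it (2), comparisons in which 0% and 0.00374% of all probe sets rose. SLC2A4, SLC2A8, SLC2A10, SLC2A12, SLC16A7 and BSG were called in none of these 5 comparisons. The comparisons share arrays, so their results are not independent of each other.

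With donor as a fixed block 4 members rose with both treatments (3.8% of all probe sets), 3 with TGF-β3 at 2% oxygen (3.25%), 3 with TGF-β3 at 21% oxygen (2.95%), and 0 with hypoxia with TGF-β3 (0.0224%) or without it (0.00747%). SLC2A3 was the gene gained for TGF-β3, and with the random block it was gained at 2% oxygen but not at 21% oxygen. The lowest array with the treatment lay above the highest without it for 4 members with both treatments (11.2% of all probe sets) and for 4 with TGF-β3 at 2% oxygen (10.1%). The same held for 2 members with TGF-β3 at 21% oxygen (10.7%), 3 with hypoxia with TGF-β3 (4.4%) and 2 with hypoxia without it (5.5%).

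**Figure D1:**
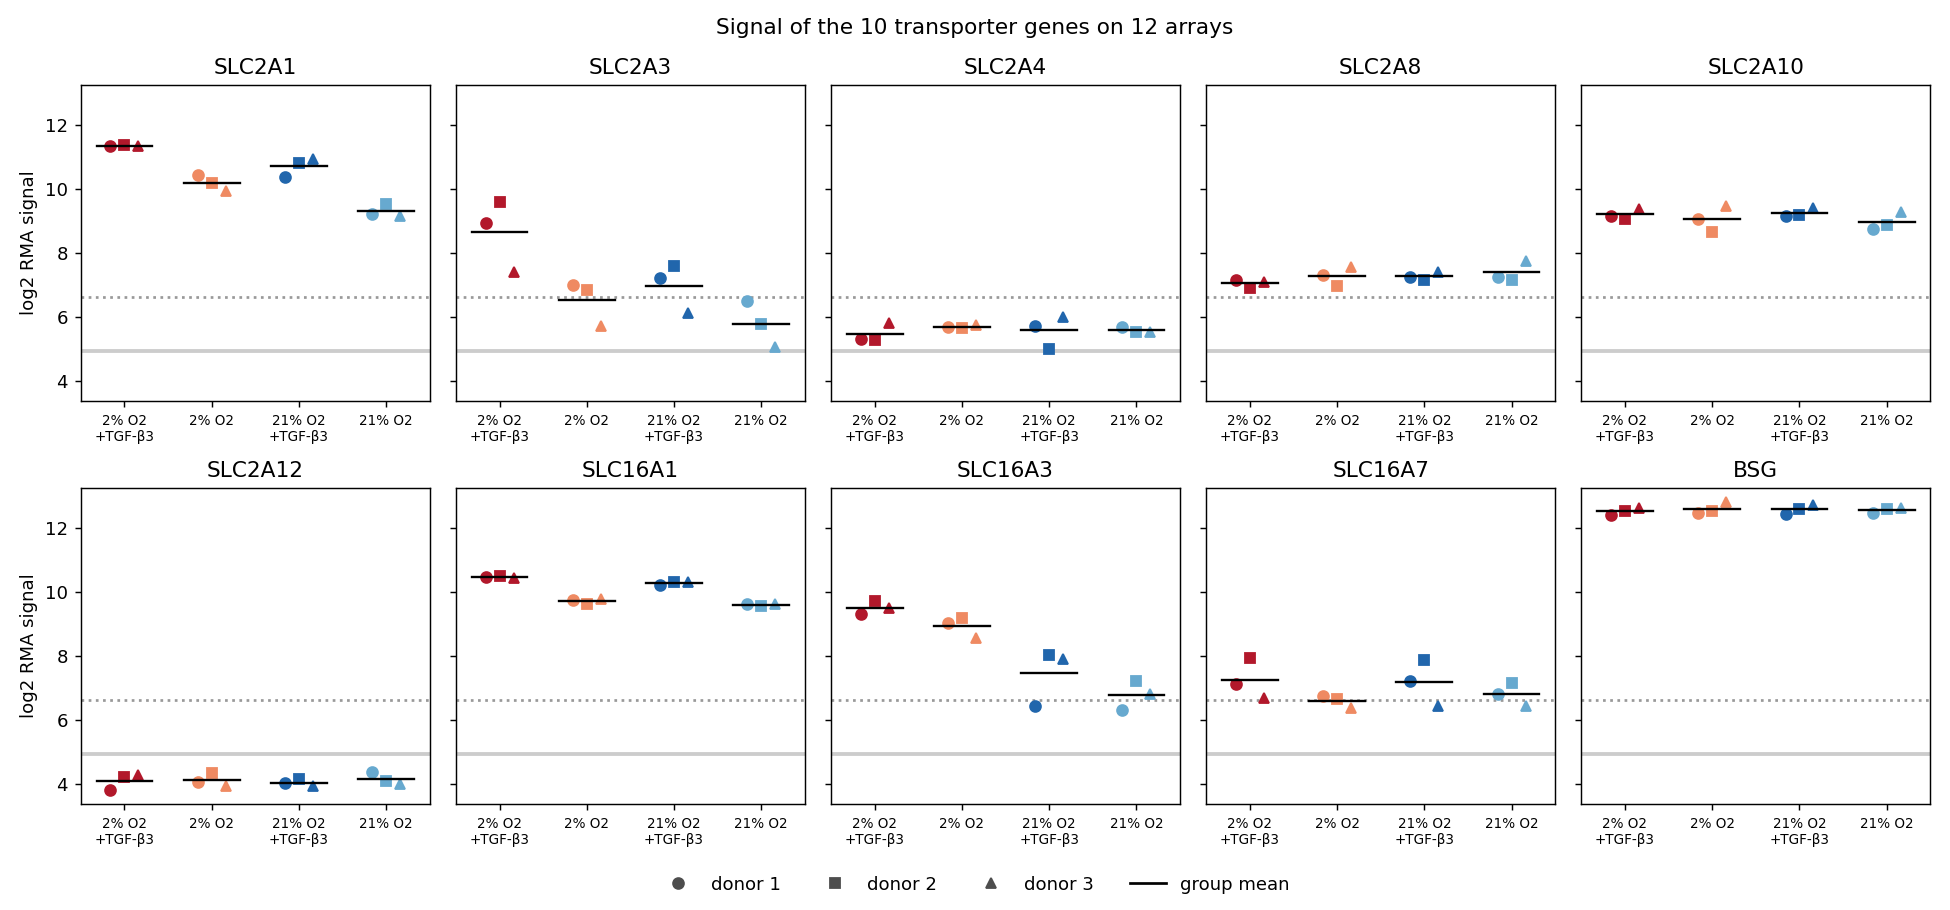
Log2 RMA signal of the 10 genes (vertical axis) in the 4 groups of 3 arrays, with a symbol for each donor and a bar at the group mean; the grey band spans the first quartiles of the 12 arrays and the dotted line marks their mean median. SLC2A1, SLC2A3, SLC16A1 and SLC16A3 are highest in hypoxia with TGF-β3 and lowest in normoxia without it, BSG stays between 12.38 and 12.79, and SLC2A12 lies below the grey band throughout.

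SLC2A1 encodes GLUT1, the carrier for basal glucose uptake in most cells. Its signal was 11.33, 11.35 and 11.33 in donors 1, 2 and 3 in hypoxia with TGF-β3. It was 10.43, 10.18 and 9.918 in hypoxia without TGF-β3, 10.36, 10.81 and 10.92 in normoxia with TGF-β3, and 9.222, 9.527 and 9.16 in normoxia without it. The 3 arrays with both treatments thus lay together at the top, above every other array, and the 3 with neither lay below every other. Arrays with hypoxia alone and with TGF-β3 alone overlapped between these extremes.

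With TGF-β3 SLC2A1 rose by 1.16 ± 0.16 at 2% oxygen (2.23-fold, adjusted p = 0.00354) and by 1.39 ± 0.16 at 21% oxygen (2.63-fold, adjusted p = 0.00145). Both treatments against neither gave a rise of 2.03 ± 0.16 (4.09-fold, adjusted p = 0.00011). Within donors 1, 2 and 3 this last difference was 2.105, 1.823 and 2.17. The calls for TGF-β3 held on leaving out any 1 array, and were lost without donor 2 at 2% oxygen (1.15, adjusted p = 0.137) and at 21% oxygen (1.45, adjusted p = 0.0854). The rise with both treatments held without any 1 donor.

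Hypoxia differences of SLC2A1 were smaller than those of TGF-β3 in these group means, at 0.64 ± 0.16 with TGF-β3 (adjusted p = 0.818) and 0.87 ± 0.16 without it (adjusted p = 0.29). In neither did the hypoxic and normoxic arrays overlap, and all 3 donors were higher in hypoxia. Averaged over both TGF-β3 levels, a comparison chosen after these values were seen, the oxygen difference was 0.76 ± 0.12 (adjusted p = 0.0654, or 0.0413 in the blocked fit). It passed without the donor 3 array of normoxia with TGF-β3 (adjusted p = 0.0496) or of hypoxia alone (0.0446). The difference between TGF-β3 alone and hypoxia alone, which tests the TGF-β3 effect against the oxygen effect since they share the normoxic arrays without TGF-β3, was 0.52 ± 0.16 and was not called (adjusted p = 0.114, or 0.0493 without the donor 1 array of TGF-β3 alone). It turned round in donor 1 (-0.0752) against 0.6285 and 1.003 in donors 2 and 3.

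SLC16A1 encodes MCT1, a carrier that moves lactate, pyruvate and ketone bodies in either direction. Its signal in donors 1, 2 and 3 was 10.45, 10.48 and 10.43 in hypoxia with TGF-β3, and 9.743, 9.618 and 9.764 in hypoxia without it. In normoxia it was 10.22, 10.3 and 10.31 with TGF-β3 and 9.631, 9.557 and 9.609 without it. The 6 arrays with TGF-β3 all lay above the 6 without, and the donors were close together, with a pooled SD of 0.0516 within groups, the smallest of the 10 genes.

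TGF-β3 raised SLC16A1 by 0.75 ± 0.07 at 2% oxygen (1.68-fold, adjusted p = 0.000525) and by 0.68 ± 0.07 at 21% oxygen (1.60-fold, adjusted p = 0.000749). The call at 2% oxygen was lost without donor 2 (0.69, adjusted p = 0.0715), and that at 21% oxygen without donor 1 (0.72, adjusted p = 0.0569) or donor 2 (0.64, adjusted p = 0.0888). With hypoxia it differed by 0.18 ± 0.07 with TGF-β3 (95% interval 0.018 to 0.336, adjusted p = 1) and by 0.11 ± 0.07 without it (-0.0497 to 0.268, adjusted p = 0.988). SLC16A1 was 0.57 ± 0.07 higher with TGF-β3 alone than with hypoxia alone (adjusted p = 0.00175), so that the TGF-β3 effect exceeded the oxygen effect. This comparison, too, was chosen after the values were seen. It called 4.33% of all probe sets in either direction (8.79% in the blocked fit, and 19.9% without overlap), and the call was lost without donor 1 (adjusted p = 0.0833) or donor 2 (adjusted p = 0.119). With both treatments against neither SLC16A1 rose by 0.85 ± 0.07 (1.81-fold, adjusted p = 0.000147), by 0.8219, 0.922 and 0.82 within the 3 donors.

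**Figure D2:**
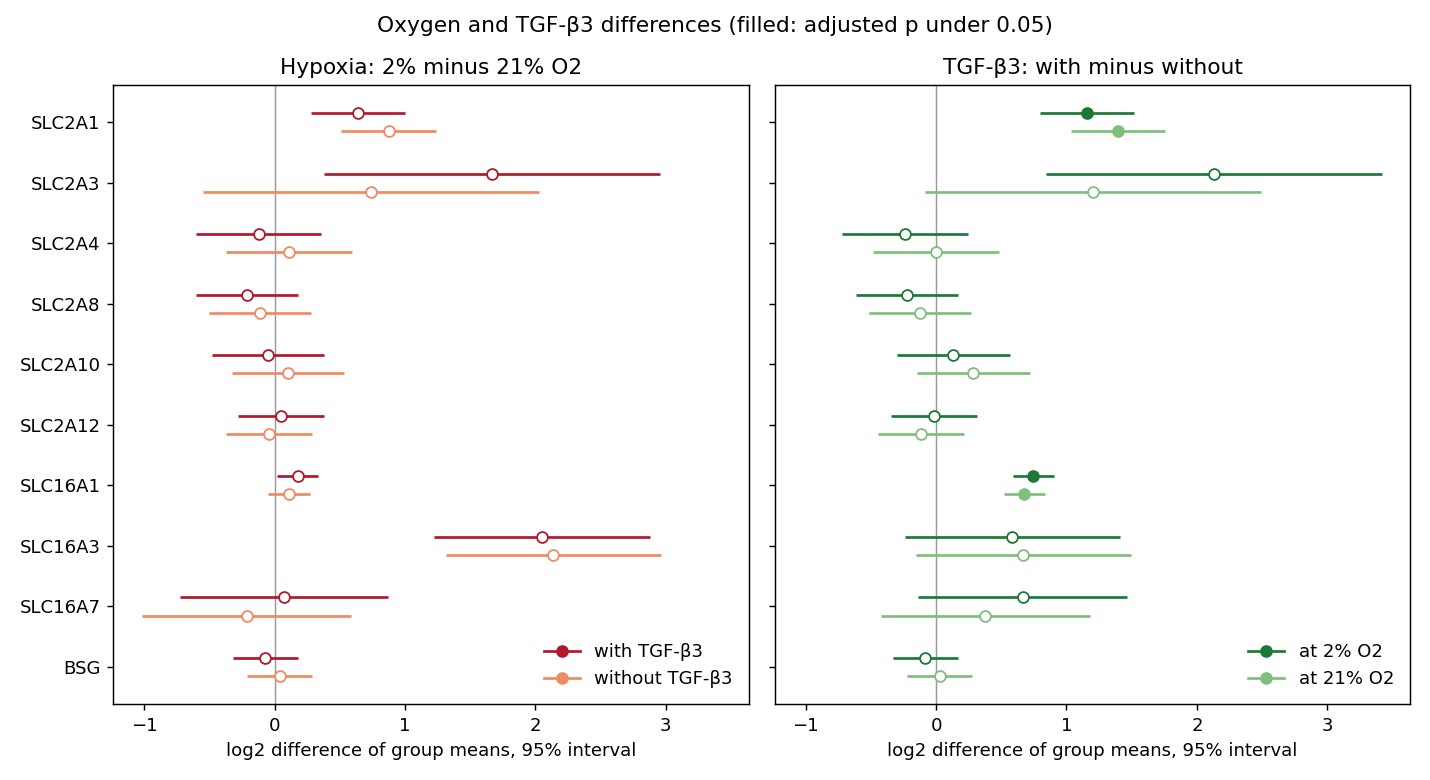
Log2 difference of group means (horizontal axis) with its 95% interval from limma for each gene, hypoxia minus normoxia on the left and with minus without TGF-β3 on the right; filled points have an adjusted p under 0.05. SLC2A1 and SLC16A1 are the filled points for TGF-β3, and SLC16A3 has the widest oxygen difference, 2.05 with TGF-β3 and 2.14 without it, with open points.

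SLC16A3 encodes MCT4, the carrier through which glycolytic cells export lactate. Its signal in donors 1, 2 and 3 was 9.315, 9.706 and 9.491 in hypoxia with TGF-β3, against 6.429, 8.013 and 7.914 in normoxia with TGF-β3. Without TGF-β3 it was 9.018, 9.186 and 8.552 in hypoxia, against 6.299, 7.224 and 6.821 in normoxia. All 6 hypoxic arrays lay above all 6 normoxic ones. Donor 1 was the lowest donor in both normoxic groups, and its array with TGF-β3 in normoxia stood well below those of the other donors.

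The oxygen difference of SLC16A3 was 2.05 ± 0.38 with TGF-β3 (4.15-fold, 95% interval 1.23 to 2.88, adjusted p = 0.301) and 2.14 ± 0.38 without it (4.40-fold, 1.31 to 2.96, adjusted p = 0.29). In absolute size these ranked 4 and 2 among the 26773 probe sets, and the unadjusted p-values in limma were 0.000189 and 0.000135. Neither was called with donor as a block (adjusted p = 0.0783 and 0.113). Leaving out the normoxic TGF-β3 array of donor 1, which is in the shared estimate of the spread, brought the difference without TGF-β3 to an adjusted p of 0.0376. Averaged over both TGF-β3 levels, the difference was 2.09 ± 0.27 (4.27-fold, adjusted p = 0.0187, or 0.00834 in the blocked fit) and ranked 2 among all probe sets. Of the members 1 rose in this average, beside 0.0448% of all probe sets, and 3 in the blocked fit (SLC2A1, SLC2A3 and SLC16A3), beside 0.261%. SLC2A3 was not among them with the random block (adjusted p = 0.244). Within donors 1, 2 and 3 the averaged oxygen difference of SLC16A3 was 2.802, 1.827 and 1.654. The call of this average was lost with any 1 of 8 of the 12 arrays left out (adjusted p up to 0.0812) and without donor 1, 2 or 3 (adjusted p = 0.21, 0.463 and 0.107).

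With TGF-β3 the signal of SLC16A3 differed by 0.59 ± 0.38 at 2% oxygen (adjusted p = 0.525) and by 0.67 ± 0.38 at 21% oxygen (adjusted p = 0.462), and each of the 3 donors was higher with TGF-β3. Averaged over oxygen it was 0.63 ± 0.27 (adjusted p = 0.187), and it passed without the donor 1 array of normoxia with TGF-β3 (0.88, adjusted p = 0.0124) or without donor 1 (0.84, adjusted p = 0.0483). Both treatments against neither gave a rise of 2.72 ± 0.38 (6.6-fold, adjusted p = 0.00264, and 0.0698 without donor 2). TGF-β3 alone was 1.47 ± 0.38 lower than hypoxia alone, which missed the threshold (-1.47, adjusted p = 0.0531) and passed it in the blocked fit (adjusted p = 0.0138) and without the donor 3 array of TGF-β3 alone (-1.70, adjusted p = 0.048). Its 3 arrays lay below those of hypoxia alone, with differences of -2.589, -1.173 and -0.6383 in donors 1, 2 and 3.

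SLC2A3 encodes GLUT3, a carrier of high affinity for glucose that is best known from neurons. Its signal in donors 1, 2 and 3 was 8.944, 9.579 and 7.405 in hypoxia with TGF-β3, and 6.988, 6.838 and 5.718 in hypoxia without it. It was 7.219, 7.591 and 6.122 in normoxia with TGF-β3, and 6.498, 5.78 and 5.05 in normoxia without it. Donor 3 was the lowest of the donors in every group, on average 0.904 below the group means (-0.904), and some groups overlapped. With TGF-β3 at 2% oxygen, and with both treatments against neither, the groups did not overlap. The lowest array, 5.05, lay just above the first quartiles.

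Both treatments against neither raised SLC2A3 by 2.87 ± 0.59 (7.29-fold, adjusted p = 0.0204), the widest mean difference of the 10 genes, and by 2.446, 3.798 and 2.355 within donors 1, 2 and 3. Within donors 1 and 3 SLC16A3 had the wider difference (3.016 and 2.67). That call was lost with only the 2 groups in the fit (adjusted p = 0.061), without the treated array of donor 1 (adjusted p = 0.0818) or donor 2 (0.075), without the untreated array of donor 2 (0.0744) or donor 3 (0.0948), and without donor 1 (0.177) or donor 2 (0.274), for SLC2A3 differences between 2.40 and 3.08. With TGF-β3 SLC2A3 differed by 2.13 ± 0.59 at 2% oxygen (4.37-fold, adjusted p = 0.0806) and by 1.20 ± 0.59 at 21% oxygen (2.30-fold, adjusted p = 0.378). With donor as a fixed block both passed (adjusted p = 0.00113 and 0.0197, standard error 0.24). With donor as a random block SLC2A3 passed at 2% oxygen (adjusted p = 0.0201) and not at 21% oxygen (adjusted p = 0.179). The difference at 2% oxygen also passed without donor 3 (2.35, adjusted p = 0.0106) or its array with both treatments (2.75, adjusted p = 0.0293). Hypoxia gave 1.67 ± 0.59 with TGF-β3 (adjusted p = 1, or 0.0914 in the blocked fit) and 0.74 ± 0.59 without it (adjusted p = 0.999). In each of these 4 comparisons all 3 donors were higher with the treatment.

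**Figure D3:**
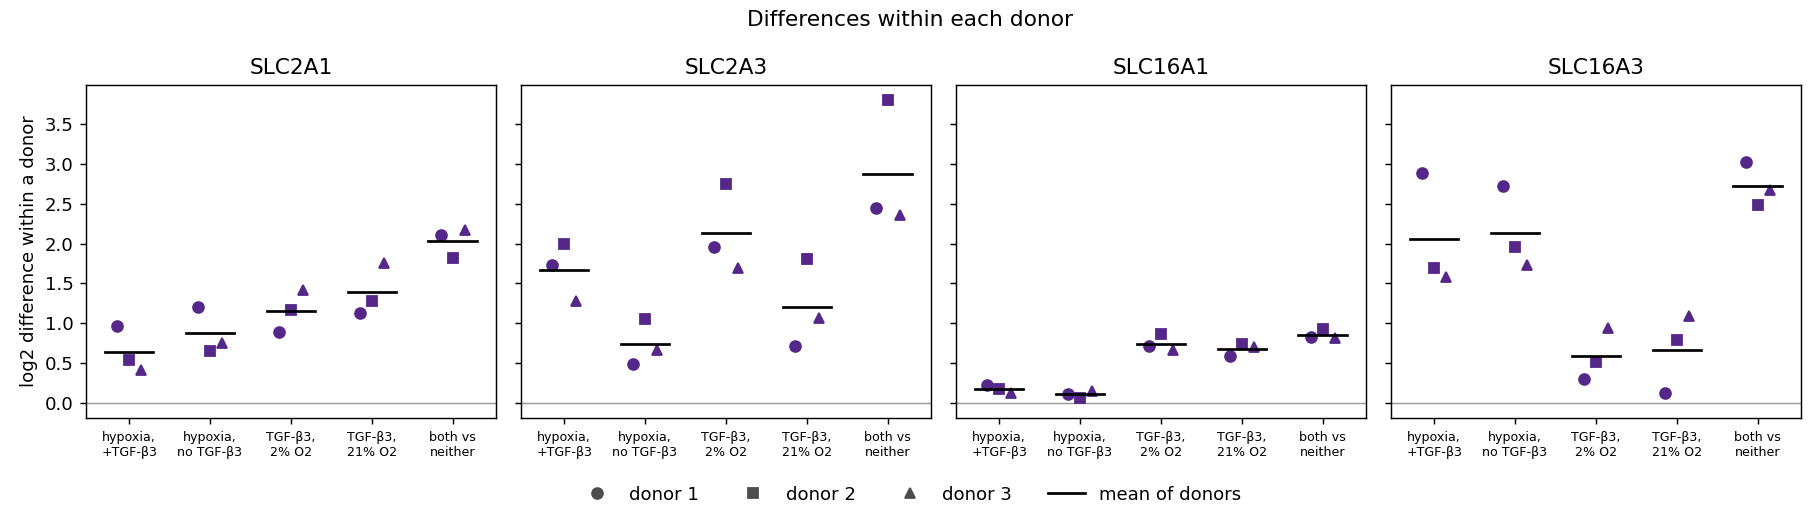
Log2 difference within each donor (vertical axis) for the 4 genes that rose with both treatments, with a symbol for each donor and a bar at their mean. Every point lies above 0; for SLC16A3 donor 1 has the largest oxygen differences (2.886 with and 2.719 without TGF-β3), and for SLC2A3 donor 2 has the largest difference in all 5 comparisons.

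The interaction asks whether the oxygen difference changed with TGF-β3, and it was called for 0 of the 10 genes by limma, with 0 at an unadjusted p under 0.05 and 0 with donor as a block (0% of all probe sets in each fit). It was -0.23 ± 0.23 for SLC2A1, 0.07 ± 0.10 for SLC16A1 and -0.08 ± 0.53 for SLC16A3. For SLC2A3 it was 0.93 ± 0.83, positive within each donor (1.236, 0.9307 and 0.6154), with a 95% interval of -0.894 to 2.749. The intervals of SLC16A3 (-1.253 to 1.083) and SLC2A3 leave room for sizeable departures from additive effects on the log2 scale.

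The order of group means was the same for SLC2A1, SLC16A1 and SLC2A3, with hypoxia plus TGF-β3 highest, then TGF-β3 alone, hypoxia alone and neither. For SLC2A1 and SLC2A3 the arrays of TGF-β3 alone and of hypoxia alone overlapped. In SLC2A3 these groups differed by 0.46 ± 0.59 (limma, adjusted p = 0.776). For SLC16A3 hypoxia alone came before TGF-β3 alone. Over both oxygen tensions, an average also chosen after the values were seen, the TGF-β3 difference was 1.28 ± 0.12 for SLC2A1 (adjusted p = 7.37e-05), 1.66 ± 0.41 for SLC2A3 (adjusted p = 0.0278) and 0.71 ± 0.05 for SLC16A1 (adjusted p = 1.85e-05), and these 3 members rose beside 4.65% of all probe sets (4 with the fixed donor block, which adds SLC16A7, beside 7.3%, and 3 with the random block). The call of SLC2A3 in this average was lost with any 1 of 7 of the 12 arrays left out (adjusted p up to 0.0719) and without donor 1 or 2 (adjusted p = 0.154 and 0.254).

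BSG, whose product (basigin or CD147) carries SLC16A1 and SLC16A3 proteins to the membrane, had a signal of 12.38, 12.53 and 12.61 in hypoxia with TGF-β3 and 12.46, 12.52 and 12.79 in hypoxia without it. In normoxia it had 12.43, 12.58 and 12.72 with TGF-β3 and 12.45, 12.57 and 12.62 without it. The groups overlapped in every comparison. Its largest single-treatment difference was -0.08 ± 0.11 (TGF-β3 at 2% oxygen, 95% interval -0.33 to 0.167), and both against neither gave -0.04 ± 0.11 (-0.289 to 0.208). A signal this high lies above that of 99.2% of probe sets.

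SLC16A7 encodes MCT2, a carrier of high affinity for lactate and pyruvate. Its signal was 7.111, 7.934 and 6.694 in donors 1, 2 and 3 in hypoxia with TGF-β3, 6.736, 6.64 and 6.37 in hypoxia without it, 7.205, 7.878 and 6.439 in normoxia with TGF-β3, and 6.802, 7.144 and 6.444 in normoxia without it. Donor 3 was the lowest in each group, and the groups overlapped. With TGF-β3 it differed by 0.66 ± 0.36 at 2% oxygen (adjusted p = 0.433) and by 0.38 ± 0.36 at 21% oxygen (adjusted p = 0.711). The TGF-β3 difference over both oxygen tensions was 0.52 ± 0.26 (adjusted p = 0.272, or 0.0336 with the fixed and 0.1325 with the random donor block). The oxygen differences were 0.07 ± 0.36 with TGF-β3 and -0.21 ± 0.36 without it.

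Among the other glucose carriers SLC2A10 (GLUT10), mutated in human arterial tortuosity syndrome, lay above the median of all 12 arrays, at 8.66 to 9.47. Its TGF-β3 differences were 0.13 ± 0.20 at 2% oxygen and 0.29 ± 0.20 at 21% oxygen. SLC2A8 (GLUT8), an intracellular hexose carrier, ranged between 6.89 and 7.75, and was lower with both treatments than with neither in 3 of 3 donors (-0.33 ± 0.18, adjusted p = 0.416). SLC2A4 (GLUT4), the insulin-responsive carrier of fat and muscle, ranged between 5.00 and 6.01, below the median of each of the 12 arrays. SLC2A12 (GLUT12), another insulin-responsive carrier, ranged between 3.81 and 4.38, below the first quartile on all 12 arrays. For these 4 genes no difference exceeded 0.34 in absolute size in any of the 6 planned comparisons, and no adjusted p was below 0.416.

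The members' median difference was 0.34 with both treatments against neither, beside 0.01 over all probe sets. For TGF-β3 it was 0.36 at 2% oxygen and 0.33 at 21% oxygen, beside 0.01 at each over all probe sets, and for hypoxia 0.06 with and 0.11 without TGF-β3, beside 0.00 at each. The members were chosen with earlier results of these data known, so these medians do not test a shift of the set.

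Some markers of other cells moved with TGF-β3. The mean log2 signal of 6 adipocyte markers ranged over 5.68 to 6.10 with and 6.78 to 6.94 without TGF-β3 at 2% oxygen, and over 5.36 to 5.99 with and 6.45 to 6.74 without it at 21% oxygen. Of these, 1 was called in either comparison, the fatty acid carrier gene FABP4, which fell by 4.36 ± 0.52 at 2% oxygen (adjusted p = 0.00139) and by 4.57 ± 0.52 at 21% oxygen (adjusted p = 0.00116). The median difference of the 6 adipocyte markers was -0.20 at 2% oxygen and -0.13 at 21% oxygen, and 0 and 2 of the 6 were higher with TGF-β3. The mean of 5 endothelial markers ranged over 5.88 to 6.04 with and 5.54 to 5.65 without TGF-β3 at 2% oxygen, and over 5.83 to 5.99 with and 5.47 to 5.56 without it at 21% oxygen. PECAM1 rose by 2.11 ± 0.25 at 2% oxygen (adjusted p = 0.00121) and by 2.13 ± 0.25 at 21% oxygen (adjusted p = 0.00123), while CDH5, KDR, VWF and TEK lay below the median of every array in each group. PECAM1 was the 1 endothelial marker called at each tension. Of the 5, 2 were higher with TGF-β3 at 2% oxygen (median difference -0.0856) and 3 at 21% oxygen (0.0426). Of the 10 stromal markers 1 fell with TGF-β3 at 2% oxygen (PDGFRB) and 2 at 21% oxygen (PDGFRB and PDGFRA), and in the blocked fit 4 and 5, with NT5E, THY1 and ENG added at each tension. The median difference of the 10 was -0.48 at 2% oxygen and -0.42 at 21% oxygen, beside 0.01 over all probe sets, and 0 and 1 of the 10 were higher with TGF-β3. Over all probe sets 1.61% fell at 2% oxygen and 1.47% at 21% oxygen, and 3.73% and 3.41% in the blocked fit. The part of these shifts in the rises of SLC2A1 and SLC16A1 was not tested. With hypoxia 1 of the 6 adipocyte markers moved as SLC16A3 did. LPL, lipoprotein lipase, differed by 1.34 ± 0.26 with and 1.5 ± 0.26 without TGF-β3 (adjusted p = 0.305 and 0.29), and both passed in the blocked fit (adjusted p = 0.0349 and 0.00741), where SLC16A3 did not. LPL rose by 1.42 ± 0.18 in the average (adjusted p = 0.0187) and by 1.16 ± 0.26 with both treatments against neither (adjusted p = 0.0291). FABP4, PLIN1, ADIPOQ, CIDEC and LEP were not called for hypoxia in either fit, and the part of LPL-expressing cells in the SLC16A3 difference was not tested. Haematopoietic, erythroid and muscle markers were called in none of the 4 comparisons of a single treatment (0 of 6, 0 of 5 and 0 of 6 measured).

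Related genes were followed in 4 lists. None of 16 measured other sugar carriers of the SLC2A, SLC5A, SLC45A and SLC50A families was called by limma for TGF-β3, hypoxia or both treatments (2 at an unadjusted p under 0.05 for both against neither). In the blocked fit 1 fell with both treatments, 1 with TGF-β3 at 2% oxygen and 1 at 21% oxygen. Among 14 other monocarboxylate carriers and chaperones 1 rose with both treatments and with TGF-β3 at each tension, and none fell. In the blocked fit 1 rose and 1 fell with TGF-β3 at 2% oxygen, 2 rose and 1 fell at 21% oxygen, and 1 rose with both treatments. The gene that rose in every one of these was EMB, embigin, the chaperone that MCT2 prefers, which rose by 4.25 ± 0.40 with both against neither (adjusted p = 0.000288), by 3.60 ± 0.40 with TGF-β3 at 2% oxygen (adjusted p = 0.000883) and by 3.72 ± 0.40 at 21% oxygen (adjusted p = 0.000838). Group means of EMB were 10.20 in hypoxia with TGF-β3, 6.6 in hypoxia without it, 9.68 in normoxia with it and 5.96 in normoxia without it.

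Over both oxygen tensions TGF-β3 raised 4 of these 14 genes and lowered 1, and the blocked fit gave the same counts. Over all probe sets 4.99% fell, and 7.47% in the blocked fit. EMB rose by 3.66 ± 0.29, the carrier gene SLC16A12 by 0.86 ± 0.20 (adjusted p = 0.0213), the aromatic amino acid carrier gene SLC16A10 by 0.66 ± 0.16 (adjusted p = 0.0276) and MPC1, a subunit of the mitochondrial pyruvate carrier, by 0.37 ± 0.09 (adjusted p = 0.0304). SLC16A5 fell by 0.38 ± 0.08 (adjusted p = 0.00868), and SLC16A5 was also the gene that fell at each tension in the blocked fit.

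Of 14 measured genes of transporter trafficking and turnover, none rose and 1 fell with TGF-β3 at 2% oxygen. This was STX4, a syntaxin on which GLUT4 vesicles dock, with -0.50 ± 0.09 (adjusted p = 0.0131). Over both tensions 3 fell, STX4 (-0.38 ± 0.06, adjusted p = 0.00311), ASPSCR1, which tethers GLUT4 vesicles (-0.32 ± 0.07, adjusted p = 0.02), and STXBP3, a partner of STX4 (-0.22 ± 0.06, adjusted p = 0.0343). ASPSCR1 had 3 probe sets, and only that with the highest mean is given. In the blocked fit 1 rose and 1 fell with TGF-β3 at 2% oxygen, 1 rose at 21% oxygen, and 1 rose and 4 fell over both tensions. With both treatments none was called, and 2 rose and 2 fell in the blocked fit, in which 3.84% of all probe sets fell (1.86% without the block). No gene of this list was called for hypoxia at either TGF-β3 level (1 at an unadjusted p under 0.05 in each, 0 with donor as a block).

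Of 11 measured genes of glucose phosphorylation, lactate formation and pyruvate gating, 2 rose with both treatments against neither. PDK1, the kinase that keeps pyruvate out of the mitochondrial oxidation step, rose by 1.17 ± 0.17 (2.24-fold, adjusted p = 0.00359), and HK2, the inducible hexokinase, by 1.04 ± 0.15 (2.06-fold, adjusted p = 0.00339). HK2 also rose with TGF-β3 at 2% oxygen (0.83 ± 0.15, adjusted p = 0.0137), the 1 call of this list in that comparison, and at 21% oxygen it had 0.63 ± 0.15 (adjusted p = 0.0508, or 0.0411 in the blocked fit). In the blocked fit 2 rose and 1 fell with TGF-β3 at 2% oxygen. None of the 11 was called for hypoxia at either TGF-β3 level (2 at an unadjusted p under 0.05 in each, 0 in the blocked fit).

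**Figure D4:**
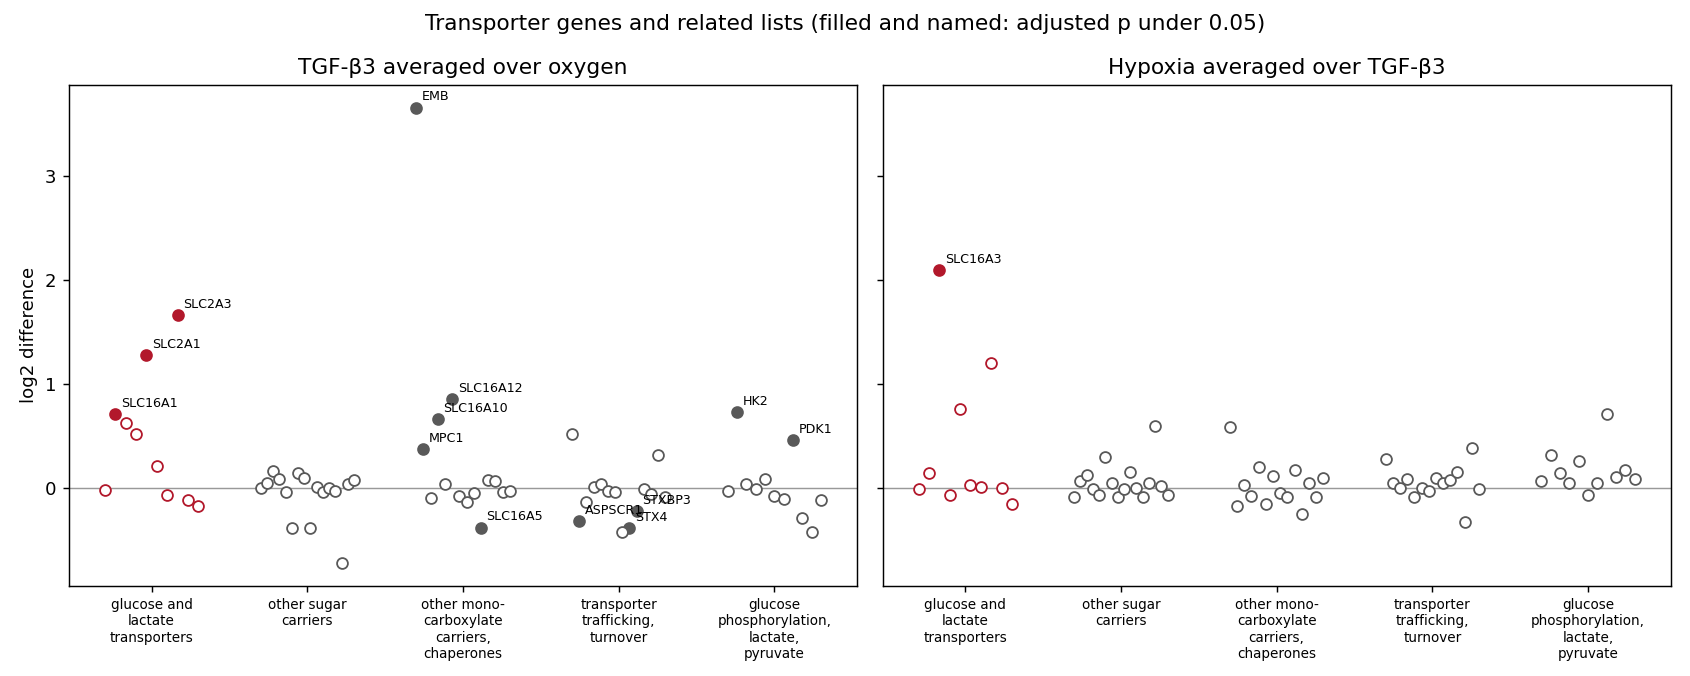
Log2 difference (vertical axis) of each measured gene of the transporter set (red) and of 4 related lists (grey), for TGF-β3 averaged over oxygen on the left and hypoxia averaged over TGF-β3 on the right; genes are in alphabetical order within a list, and those with an adjusted p under 0.05 are filled and named. SLC16A3 is the 1 named gene for hypoxia, at 2.09, and EMB has the largest difference for TGF-β3, at 3.66.

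Profiles most like those of the members with the widest range of group means were sought among 18009 other symbols, by the root mean square difference over the 12 arrays after centring each gene. For SLC2A3 they were LVRN (0.616), ITGA8 (0.623) and CDH2 (0.667), where SLC2A3 itself varied by 1.26 about its mean. For SLC16A3, which varied by 1.18, they were SERPINB5 (0.64), ABHD18 (0.665) and CA9 (0.672), the last a carbonic anhydrase at the cell surface. Group means of CA9 were 8.42 in hypoxia with TGF-β3, 6.54 in hypoxia without it, 5.82 in normoxia with TGF-β3 and 5.33 in normoxia without it.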

How the data were processed

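The authors deposited log2 signals of 26773 probe sets on 12 arrays. Per the labels' design text they were normalised by RMA, and per the submitters' processing notes Partek 6.6 was used. Their log2 scale was inferred from the range of values, and the sources used here do not give the library version, filters or test. Every value was present, and no value column lacked a sample. Symbols came from the platform annotation, 18457 probe sets having 1 symbol, 688 several and 7628 none. Donor and condition were taken from titles.

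Limma 3.58.1 in R 4.3.3 was fitted to all arrays with group as the term (lmFit, contrasts.fit and eBayes, 8 residual and 3.14 prior degrees of freedom) and tested on simulated data, with Benjamini-Hochberg adjustment over all probe sets and a threshold of 0.05. The simulated arrays were independent and changed only with oxygen, so the likeness of arrays of 1 donor was not part of that test. Of 9 comparisons, 6 were planned, and each treatment averaged over the other and TGF-β3 alone against hypoxia alone were added after seeing the data. The averages treat 6 arrays of 3 donors as separate. Each donor number was taken to mark 1 animal. Deviations from group means correlated with r of 0.177 to 0.602 for the 18 pairs of 1 donor and -0.44 to 0.1 for 36 pairs of different donors, so donor was also fitted as a block. Centring on group means ties the ranges together, since positive values within a donor bring negative ones between donors. The members and lists were chosen with earlier results of these data known. Named were all 10 members, up to 4 called genes of each related list and comparison by size, and 3 nearest profiles for 2 members. Alternatives were a fixed or random donor block, quantile normalisation, equal medians, a variance trend, leaving out dim probe sets, only the groups compared, and leaving out each array or donor. No member had a second probe set.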

Additional observations from a re-analysis of the deposited data

How the results depend on the processing

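Of 1298 differences of single members recomputed for the 6 planned comparisons, 1278 kept their side of the threshold, 13 lost and 7 gained a call, and no called difference changed sign. For the 3 added comparisons 22 of 634 lost and 16 gained a call. Leaving out each array or donor in turn gave 0 to 1 members called for hypoxia without TGF-β3 (0 with all arrays), 0 to 2 for TGF-β3 at 21% oxygen (2), 0 to 3 for TGF-β3 at 2% oxygen (2), 2 to 4 for both against neither (4), 0 to 2 for hypoxia averaged over TGF-β3 (1), 2 to 3 for TGF-β3 averaged over oxygen (3) and 0 to 2 for TGF-β3 alone against hypoxia alone (1). It gave 0 throughout for hypoxia with TGF-β3 and for the interaction. With donor as a fixed replicate block 3 members were called for hypoxia averaged over TGF-β3, and 2 with the random block, the variance trend or dim probe sets left out. Over all probe sets this average called 83 with the fixed and 49 with the random block (13 without a block). It called 26 with the variance trend, and 29 of 13387 with dim probe sets left out. For TGF-β3 alone against hypoxia alone these 4 settings gave 2 members. All probe sets called there were 2353, 2024, 1324 and, of 13387, 1602 (1159 without a block). Both donor blocks left the counts at 0 for hypoxia with and without TGF-β3 and at 4 for both against neither. The fixed block gave 3 for TGF-β3 at each tension, SLC2A3 being the 1 gained, and the random block 3 at 2% oxygen and 2 at 21% oxygen. The fixed block moved the count of all probe sets called with TGF-β3 at 2% oxygen to 1869 (817 without it), at 21% oxygen to 1701 (736), and with both against neither to 2046 (1002). Without donor 2 only 49, 29 and 101 were called. Counts were 116, 95 and 169 without donor 1, and 545, 447 and 485 without donor 3. The low counts touch the calls lost without donor 1 or 2 for TGF-β3 at each tension and for both against neither. Averaged over oxygen, TGF-β3 still called 826 probe sets without donor 1 and 593 without donor 2 (2582 with all donors). TGF-β3 alone against hypoxia alone called 124 and 45 (1159), and the hypoxia average 0 and 0 (13). The causes of the lower counts, among them the fewer arrays of such fits, were not tested. SLC2A4 and SLC2A12 fell out when dim probe sets were left out. The alternative of a second probe set could not be run, since no member has one. Without detection values, low signals such as that of SLC2A12 cannot be told from background.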

Other observations

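SLC5A3, a carrier of myo-inositol and not of glucose, was singled out after its values were seen. Its group means were 9.25 in hypoxia with TGF-β3, 10.44 in hypoxia without it, 9.12 in normoxia with TGF-β3 and 9.38 in normoxia without it. The TGF-β3 difference of SLC5A3 at 2% oxygen was -1.18 ± 0.42 (limma, adjusted p = 0.189, or 0.00447 in the blocked fit), and was negative in 3 of 3 donors. The interaction of SLC5A3 was not called.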
